A study of Bos taurus with 30 samples.

Results

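Peaks on chromosomes 6, 9 and 12 of cattle (Bos taurus) are described here, in 30 lists of accessible regions from oocytes, preimplantation embryos and embryonic stem cells. The members were all peaks placed on these 3 chromosomes with the first and last 3 Mb of each left out, the last base of a chromosome being taken as the largest peak end in any list. This left 221189 peaks, counted over the 30 lists, of 1925876 on the inner parts of all 29 autosomes and of 2172195 peaks in all. Chromosome 6 held 82577 of them, chromosome 9 held 77467 and chromosome 12 held 61145. The inner parts of the 3 chromosomes made up 291.5 Mb, which is 12.6% of the inner autosomal length. The name gene-poor was checked by counting protein-coding genes per chromosome in RefSeq's gene table (assembly ARS-UCD2.0, used for gene counts only), and the 3 chromosomes held 4.48 such genes per Mb, against 8.67 per Mb on the other 26 autosomes. Chromosome 12 was the lowest of the 29 autosomes with 4.07 genes per Mb, chromosome 9 was the 4th lowest with 4.51 and chromosome 6 the 5th lowest with 4.75, so the name held. Chromosomes 20 and 24, with 4.25 and 4.49 genes per Mb, stood between them.

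ATAC-seq, in which a transposase cuts and tags DNA where chromatin is accessible, had been run on pools of germinal vesicle-stage (GV) oocytes, on embryos fertilised in vitro with frozen semen of a Holstein bull and sampled as 2-cell embryos at 30 to 32 hours after insemination, 4-cell embryos at 2 days, 8-cell embryos at 3 days and morula at 5 days, on inner cell masses (ICM) isolated by immunosurgery at 7 days, and on embryonic stem cells (ESC) grown on mouse feeder cells, from which they were separated before lysis. Transcription blocked embryos (TBE) were 2-, 4- and 8-cell embryos that received 50 µg/ml of α-amanitin, which stops RNA polymerase II, in the culture medium on the first day, and their controls had none. Some embryos of a collection received the inhibitor and others did not, so that TBE and control came from the same collections. Each of the 10 conditions had 3 replicates. The oocytes and embryos of a library were pooled from 1 of 3 collections, whereas the sources used here do not say how the ESC replicates differ, and p-values measure the spread between these libraries. Cells within a pool need not have been at 1 state, and the number of cells open at a site cannot be told apart from how open each was. The libraries of GV oocytes and early embryos had received more PCR cycles than those of 8-cell embryos and morula.

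The lists differed widely in size, from 925 peaks in 1 2-cell TBE library to 247513 in 1 8-cell TBE library. The lists do not give the reads behind them, and read depth was not used here. The tests of density, covered share, width, fold enrichment, low bins and missing regions were repeated with equal numbers of the strongest peaks per list. The smallest lists left few members: the 2-cell replicates had 71, 95 and 637 peaks on the 3 chromosomes, and the 2-cell TBE replicates had 52, 754 and 1003. In contrast, each 8-cell and morula library had 13695 peaks or more there.

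Gene-rich and gene-poor chromosomes take different places in the nucleus of most somatic cells. Gene-poor chromatin tends to lie at the nuclear rim, replicates late and is mostly compact, whereas accessible sites are concentrated at promoters and enhancers and thus follow genes. In cattle embryos the major wave of embryonic genome activation occurs around the 8-cell stage, and chromatin is reorganised at the same time. The 3 chromosomes are not without genes of interest: chromosome 6 carries the casein cluster and KIT (a receptor of germ and pigment cells), chromosome 9 carries PRDM1 and CITED2 (transcriptional regulators), and chromosome 12 carries KLF5 (a factor of early lineages) and RB1 (a brake on the cell cycle). Long gene deserts separate them.

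Accessible sites were sparse on the 3 chromosomes in GV oocytes, close to the autosomal mean in 8-cell embryos and ESC, and in between at the other stages. The share of all inner autosomal peaks that lay on them was lowest in GV oocytes with 9.15% ± 0.492 (SD, n = 3). Embryos had 11.5% ± 0.644 as 2-cell, 10.6% ± 0.164 as 4-cell and 12.2% ± 0.0602 as 8-cell embryos. It was 11.1% ± 0.375 in morula, 10.5% ± 0.645 in ICM and 12.1% ± 0.618 in ESC (n = 3 each), against 12.6% of the length. Of the bases covered by peaks, the 3 chromosomes held 9.03% ± 0.495 in GV oocytes, with 10.5% ± 0.110 at 4-cell and 11.9% ± 0.0179 at 8-cell.

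Relative density is the number of peaks per Mb on the 3 chromosomes divided by that on all 29 autosomes in the same library, so that 1 is the autosomal mean. The GV oocyte libraries stood at 0.716, 0.693 and 0.769, or 11.3 ± 1.14 peaks per Mb (SD, n = 3). The 4-cell libraries stood at 0.853, 0.827 and 0.838 with 8.31 ± 4.54 peaks per Mb, and the 8-cell libraries at 0.967, 0.972 and 0.962 with 51.7 ± 6.47 peaks per Mb. The 3 groups did not overlap. The morula libraries were lower again, at 0.889, 0.908 and 0.850, below every 8-cell library. ICM libraries had 0.784, 0.886 and 0.829 and overlapped with morula and 4-cell libraries. ESC libraries had 0.911, 1.01 and 0.963 and lay above every ICM library. The ESC lists held 39333, 142643 and 99432 peaks, in the same order as these values, and the ICM lists 84773, 93484 and 116791. ESC and ICM were not compared by themselves with equal numbers of the strongest peaks. The 2-cell libraries had 0.897, 0.870 and 0.969, but the first 2 of these values rest on 71 and 95 peaks, and their 95% Wilson intervals, which cover counting error only, reach from 0.719 to 1.11 and from 0.718 to 1.05. Over the 30 libraries the relative density was below 1 in 29, with a median of 0.878, and ESC replicate 2 was the exception. Taken singly, all 3 chromosomes were below 1 in each of the 3 libraries of GV oocytes (as were 41.4% of the 29 autosomes), 4-cell embryos (27.6%), morula (27.6%), ICM (44.8%) and 2-cell TBE (31.0%). In 8-cell embryos only chromosome 12 was, against 48.3% of autosomes.

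The 10 conditions differed in relative density. On the log2 scale 72.1% of the sum of squares lay between conditions (permutation test over the 30 libraries, 100000 relabellings, p = 0.00099, Benjamini-Hochberg adjusted p = 0.00875 over 17 tests). With the 616 strongest peaks of each list the share between conditions was 76.7% (p = 0.00018, permutation test). Such a share does not say which conditions were higher, and their order with these peaks is not given here. With all peaks the share was 72.6% without replicate 3 of every condition, and the test then missed the threshold of 0.05 (permutation p = 0.0619). The relative covered share, which is the percentage of bases under peaks on the 3 chromosomes over that on all autosomes, also differed, with 72.0% between conditions (permutation p = 0.00103, adjusted p = 0.00875), and again not without replicate 3 (p = 0.0770).

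**Figure D1:**
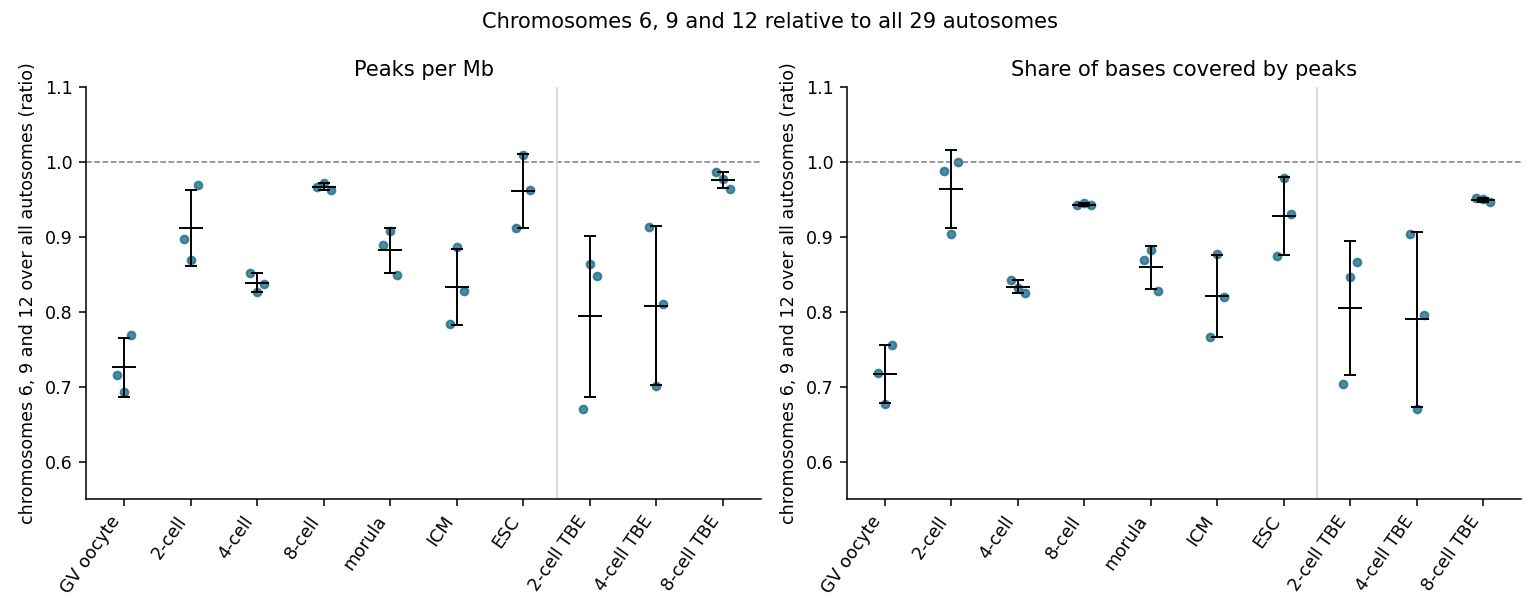
Peaks per Mb (left) and share of bases covered by peaks (right) on chromosomes 6, 9 and 12, each divided by the value of all 29 autosomes in the same library, for the 10 conditions on the horizontal axis. Points are libraries, black bars the mean ± SD of 3, the dashed line the autosomal mean. GV oocytes lie lowest among the untreated conditions with a mean density ratio of 0.726, and the 8-cell libraries lie within 0.962 to 0.972.

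From 2-cell embryo to morula the relative density did not move in 1 direction: when each library was set against those of another stage, the later one was the higher in 50.0% of pairs (exact permutation test over all arrangements, p = 1), and in 24.1% with the 628 strongest peaks of each list (exact p = 0.0531). Between 4-cell and 8-cell embryos, the step at which the genome is activated, every 8-cell library stood above every 4-cell library, with means of 0.967 ± 0.00478 and 0.839 ± 0.0130 (SD, n = 3 each). The difference was 0.21 on the log2 scale with an exact permutation p of 0.1, the smallest that 3 against 3 libraries allow, so that no p under 0.05 could be reached. Using the 12355 strongest peaks of each of these 6 lists, it was 0.08 (exact p = 0.3). The size of the difference thus moved with the number of peaks taken, and the length of the lists and the stage cannot be told apart in it.

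The chromosomes differed among themselves. Chromosome 6 moved most and had the lowest relative density of all 29 autosomes in GV oocytes (0.637 ± 0.0381, SD, n = 3) and in 4-cell embryos (0.762 ± 0.0245). In the 4-cell libraries it stood at 0.783, 0.768 and 0.735, whereas in the 8-cell libraries it stood at 0.989, 1.00 and 0.996, near the middle (17th lowest of 29). The difference was 0.39 on the log2 scale (exact permutation p = 0.1, the smallest possible), and 0.24 with equal numbers of the strongest peaks, without overlap of the libraries. In morula it was again the 3rd lowest, at 0.866 ± 0.0240.

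Chromosome 9 was seldom the sparsest of the 3. It had 0.760 ± 0.0554 in GV oocytes (SD, n = 3), then 0.920 ± 0.0276 at 4-cell and 0.984 ± 0.0163 at 8-cell. In the 2-cell libraries it was above the mean, at 1.08, 1.14 and 1.13, on only 29, 42 and 251 peaks. Chromosome 12 showed the smallest range of means among untreated conditions, from 0.792 ± 0.0539 in ICM to 0.907 ± 0.0138 in 8-cell embryos, and was among the 3 lowest autosomes in every untreated condition other than GV oocytes. Of the 30 libraries, chromosome 12 was the lowest of the 3 in 15, chromosome 6 in 14 and chromosome 9 in 1.

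All 3 chromosomes were higher in each 8-cell library than in any 4-cell library, as were 34.5% of the 29 autosomes, while 37.9% were lower. With equal numbers of the strongest peaks this was no longer so for chromosome 9 (log2 difference −0.04, exact permutation p = 0.6) and chromosome 12 (0.02, exact p = 0.9). All 3 were lower in each morula than in any 8-cell library, against 31.0% of autosomes. None separated between morula and ICM, where 20.7% of autosomes were higher and 6.9% lower in ICM. Chromosomes 6 and 9 were higher in each ESC than in any ICM library, against 37.9%, a step not repeated with equal numbers of peaks. All 3 were also higher in each 4-cell library than in any GV oocyte library, against 31.0%, and in each 8-cell library than in any GV oocyte library, against 41.4%. With only 3 chromosomes these counts are a description.

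**Figure D2:**
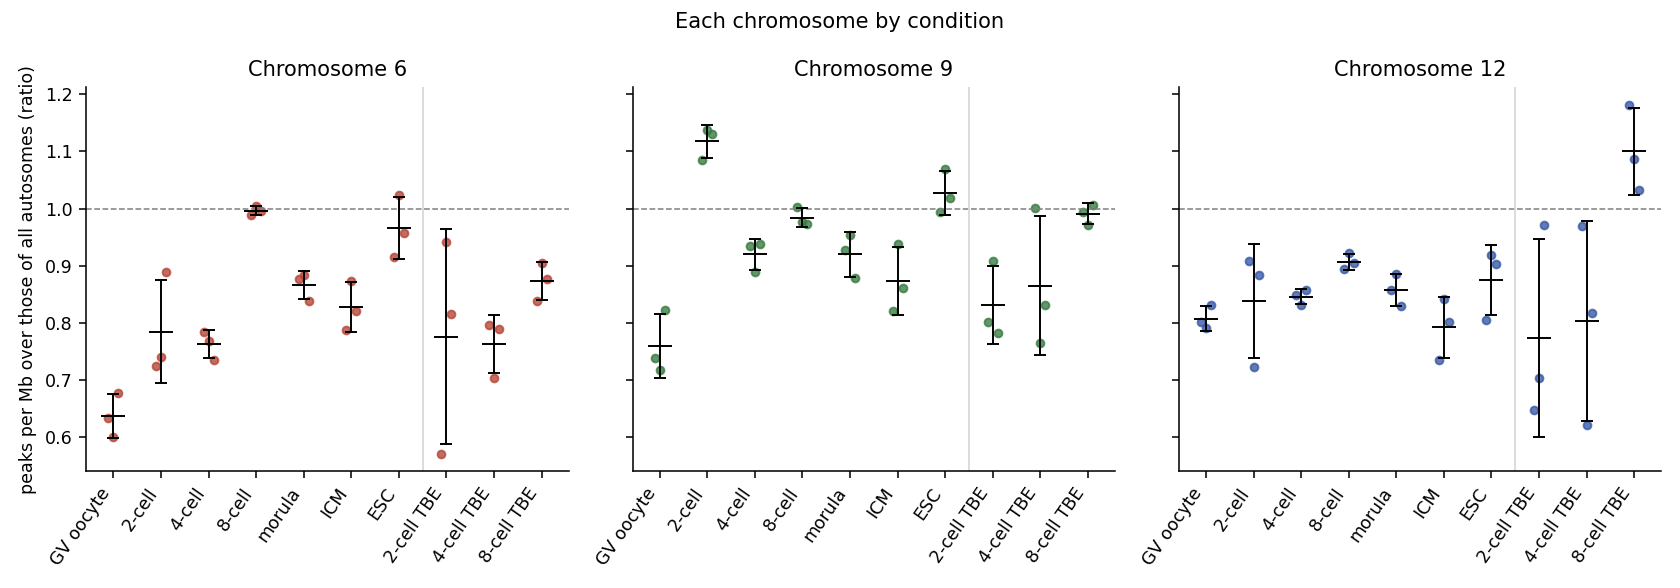
Peaks per Mb of chromosomes 6, 9 and 12 over those of all 29 autosomes (vertical axis, ratio) in each library of the 10 conditions (horizontal axis), with black bars for the mean ± SD of 3. Chromosome 6 goes from 0.762 at 4-cell to 0.996 at 8-cell, and the 8-cell TBE libraries of chromosome 12 lie at 1.03 to 1.18, above its 8-cell controls.

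Values of the other chromosomes equally short of genes are given beside these, without a test. Chromosome 20 had a relative density of 0.816 ± 0.0465 in GV oocytes, of 0.787 ± 0.101 at 4-cell and of 0.919 ± 0.0293 at 8-cell (SD, n = 3). Chromosome 24 had 1.13 ± 0.0488 in GV oocytes, above every value of chromosomes 6, 9 and 12 there, and was lower in 8-cell embryos (0.922 ± 0.0122). Across the 29 autosomes the relative density went with genes per Mb with Spearman's rho between 0.598 and 0.696 in the GV oocyte libraries, 0.572 and 0.685 in 8-cell libraries, 0.854 and 0.932 in ICM libraries, and −0.224 and 0.591 in ESC libraries. These are correlations over chromosomes, which share a library and are not replicates.

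Along each chromosome the peaks of GV oocytes left long stretches nearly empty. The inner autosomes were cut into 2299 bins of 1 Mb, 290 of them on the 3 chromosomes, and the 20% of all bins with the lowest density in GV oocytes were called low bins. This division was made after the data had been seen. Low bins made up 81 of the 290 bins (27.9%), against 18.9% of the bins of the other autosomes. They were 34.6% of chromosome 12, 31.5% of chromosome 6 and 18.4% of chromosome 9. The longest unbroken runs of low bins were chr12:37000001-47000000 and chr6:73000001-83000000, each 10 Mb long, followed by chr6:47000001-56000000 (coordinates on ARS-UCD1.2). The GV oocyte values of these bins chose them and are given as a description only.

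Over chr6:73000001-83000000 the GV oocyte lists held 7, 8 and 13 peaks, those of 4-cell embryos 42, 17 and 12, and those of 8-cell embryos 348, 366 and 457. Relative to the autosomal mean of each library this was 0.0600, 0.231 and 0.729. At 8-cell the run was less dense than an average stretch, but no longer near empty. Over chr12:37000001-47000000 the same lists had 13, 15 and 15 peaks for GV oocytes, 48, 27 and 15 for 4-cell and 347, 366 and 446 for 8-cell embryos, with ratios of 0.0930, 0.302 and 0.722. Both runs were sparser in morula than at 8-cell, at 0.494 and 0.492.

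**Figure D3:**
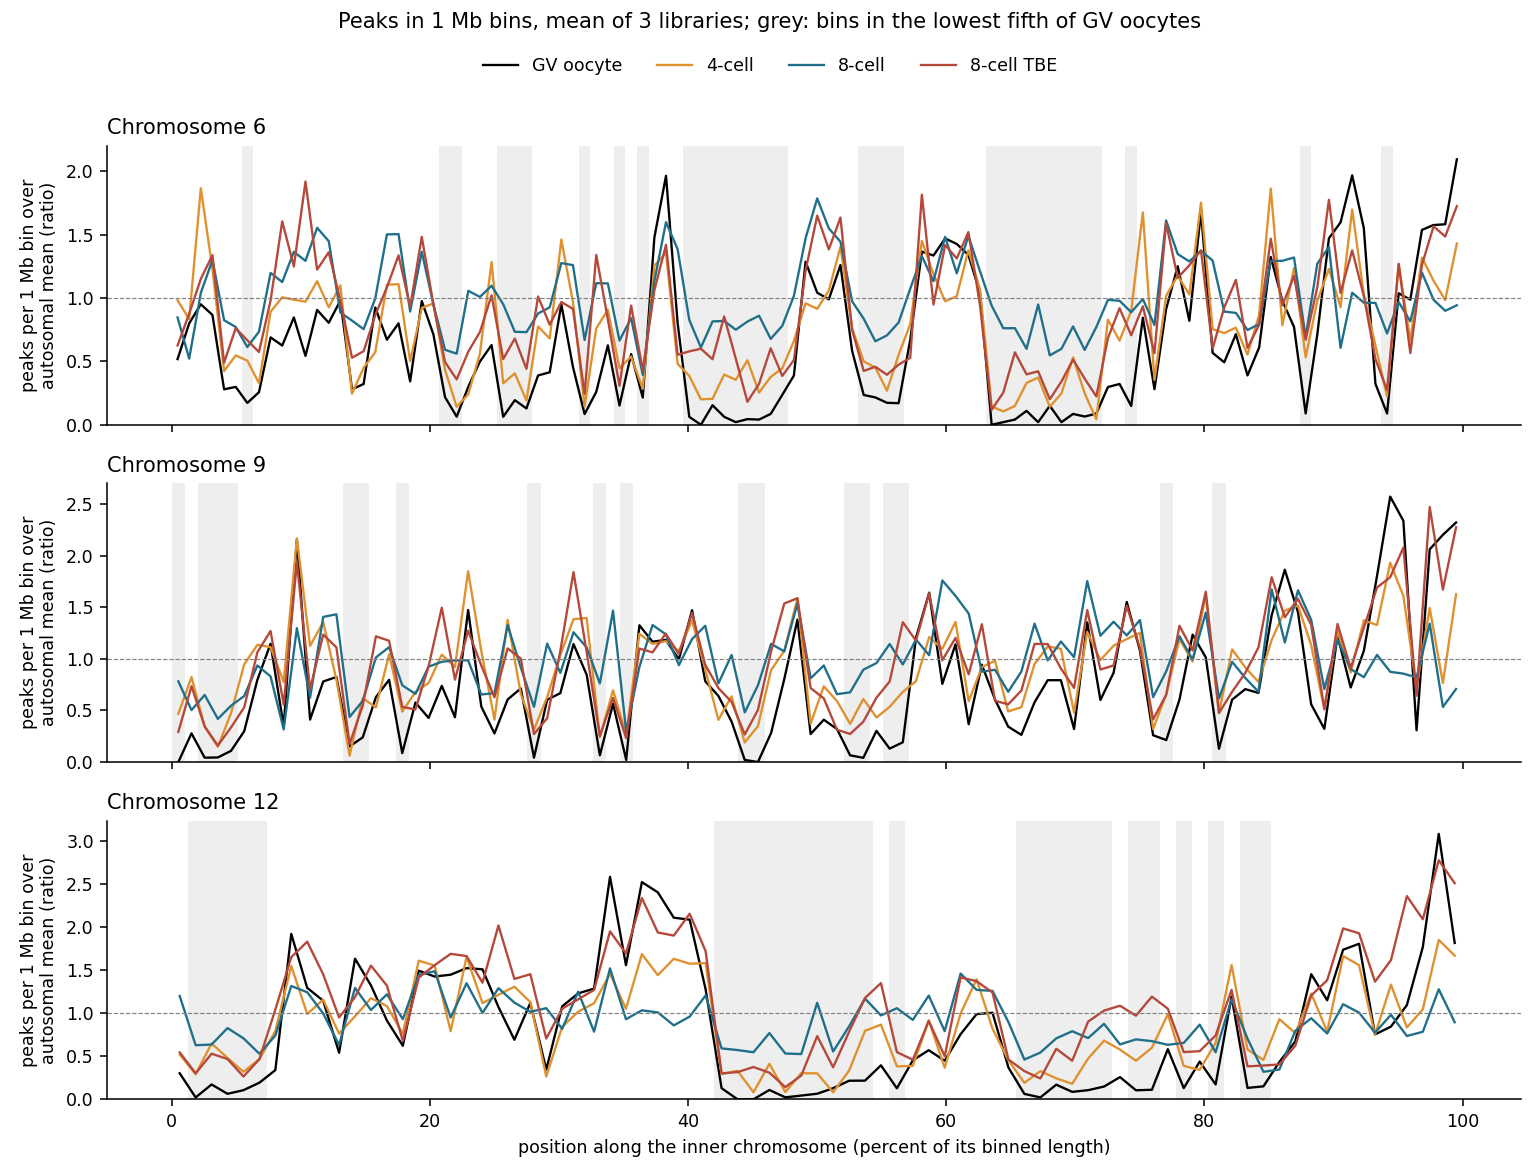
Peaks per 1 Mb bin over the autosomal mean (vertical axis, mean ratio of 3 libraries) along the inner part of chromosomes 6, 9 and 12 (horizontal axis, percent of the binned length from the start of the inner part) in GV oocytes, 4-cell, 8-cell and 8-cell TBE. Grey marks the 81 bins among the lowest 20% in GV oocytes. In those bins the 8-cell line runs above the 4-cell and 8-cell TBE lines for most of their length, and on chromosome 12 it is the flattest of the 4.

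Taken over the 81 low bins, the density relative to the autosomal mean was 0.103 ± 0.0232 in GV oocytes, then 0.369 ± 0.0355 at 4-cell, 0.702 ± 0.0178 at 8-cell and 0.541 ± 0.0517 at the morula stage (SD, n = 3 each). The 4-cell libraries had 0.367, 0.405 and 0.334, and the 8-cell libraries 0.682, 0.712 and 0.713. The difference between 4-cell and 8-cell was 0.334 in ratio (exact permutation p = 0.1, the smallest possible), and 0.293 with equal numbers of the strongest peaks. ICM libraries had 0.343, 0.502 and 0.385, and ESC libraries 0.597, 0.795 and 0.716, all above ICM. The ESC values followed the order of their list lengths, and this step was not repeated with equal numbers of peaks. The bins not called low on the 3 chromosomes moved little, from 1.02 ± 0.0265 at 4-cell to 1.07 ± 0.0101 at 8-cell. The low bins of the other 26 autosomes went from 0.411 ± 0.0477 to 0.691 ± 0.0364 over the same step. The difference between the 2 sets of low bins was not tested.

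**Figure D4:**
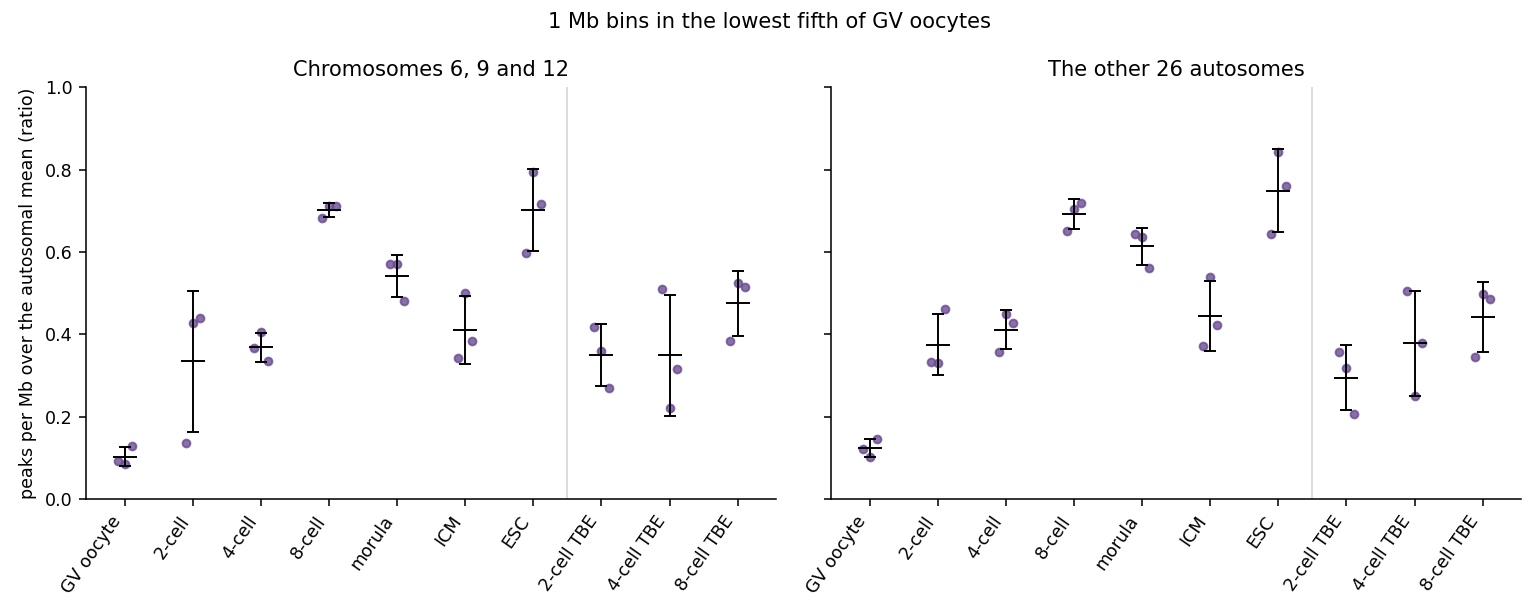
Density of the low bins (lowest 20% in GV oocytes) over the autosomal mean in each library, for chromosomes 6, 9 and 12 (left, 81 bins) and the other 26 autosomes (right, 379 bins), with black bars for the mean ± SD of 3 libraries. In both panels 8-cell and ESC lie high among the conditions, and 8-cell TBE libraries lie below all 8-cell controls.

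Counted bin by bin, 112 of the 290 bins (38.6%) had a higher relative density in every 8-cell than in every 4-cell library, against 26.6% of all autosomal bins. Among the low bins it was 54 of 81, or 66.7%, and among the low bins elsewhere 54.1%. A lower density in every 8-cell library was found in 27 bins of the 290, against 17.3% of all bins, and in 0 of the low bins, against 1.85% of the low bins elsewhere. Chosen as sparse in GV oocytes, the low bins held only 3.65 ± 1.97 peaks per Mb at 4-cell (SD, n = 3). This left little room for a lower density at 8-cell and more for a higher one. Towards morula the direction turned: 124 of the 290 bins were lower in every morula than in every 8-cell library (42.8%, against 27.9% of all bins), 49 of them low bins (60.5% of the low bins, against 41.4% elsewhere). From morula to ICM, 82 bins were lower in every ICM library (28.3%, against 24.9% of all bins) and 39 were higher (against 17.1%). From ICM to ESC, 119 bins were higher in every ESC library (41.0%, against 32.1%), among them 47 low bins (58.0% of the low bins, against 63.1% elsewhere), and 44 were lower (against 25.4%). Neighbouring bins are not independent, and these are counts, not tests.

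Most regions called at 8-cell on the 3 chromosomes had no counterpart in the shorter lists of earlier stages. Regions held by at least 2 of the 3 libraries of a condition numbered 2474 for GV oocytes, 1256 for 4-cell and 13328 for 8-cell embryos and 15858 for morula on chromosomes 6, 9 and 12. Of the 8-cell regions there, 7.77% overlapped a 4-cell region and 11.5% a GV oocyte region, against 10.4% and 17.3% of the 8-cell regions of the other autosomes. Conversely, 82.3% of the 4-cell regions and 62.3% of the GV oocyte regions were found at 8-cell (85.9% and 64.9% elsewhere). Of the 8-cell regions 63.1% overlapped a morula region and 20.8% an ESC region, against 69.3% and 25.7% on the other autosomes, and 53.2% of the morula and 32.7% of the ESC regions overlapped one of 8-cell (51.7% and 39.4% elsewhere). For the 8-cell regions the share was lower on chromosomes 6, 9 and 12, and the difference was not tested.

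Averaged over the 3 stages, the relative density of the 3 chromosomes together did not differ between TBE and control beyond the spread of the libraries. The 2-cell TBE libraries had 0.670, 0.864 and 0.848, all below the 2-cell controls, where the first value rests on 52 peaks with a 95% Wilson interval of 0.516 to 0.865. The 4-cell TBE libraries had 0.913, 0.701 and 0.811 and overlapped with their controls, as did the 8-cell TBE libraries with 0.987, 0.978 and 0.964. Over the 3 stages the mean difference, TBE minus control, was −0.09 on the log2 scale (exact permutation test within stages, 8000 arrangements, p = 0.182). For the covered share it was −0.11 (exact permutation p = 0.0743). Counting only peaks with a −log10 q of at least 3, the density difference was −0.21 and the exact permutation p 0.0198. With all peaks the density difference was −0.208 at 2-cell (exact permutation p = 0.1, the smallest possible), −0.0616 at 4-cell and 0.0133 at 8-cell. In covered share TBE and control did not overlap at 2-cell (−0.264) or at 8-cell (0.00983), each with an exact permutation p of 0.1. With equal numbers of the strongest peaks the difference at 8-cell was 0.11 in density, against 0.01 with all peaks, and 0.11 in covered share, and neither overlapped between TBE and control (exact permutation p = 0.1 each). At 2-cell it was −0.38 and −0.35 (exact permutation p = 0.1 each).

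Chromosomes 6 and 12 departed from the 8-cell controls in opposite directions in 8-cell TBE. Chromosome 12 was at 1.18, 1.09 and 1.03 in the 8-cell TBE libraries, above all control libraries at 0.894, 0.922 and 0.904. The difference was 0.28 on the log2 scale and the chromosome went from the 3rd to the 21st lowest of 29. Chromosome 6 was at 0.838, 0.904 and 0.877 under the block, below all controls, with a difference of −0.19. Chromosome 9 did not separate, with 0.994, 0.972 and 1.01 against 1.00, 0.977 and 0.972. For each of chromosomes 6 and 12 the exact permutation p was 0.1, the smallest possible. With equal numbers of the strongest peaks the differences were 0.39 for chromosome 12, −0.16 for chromosome 6 and 0.15 for chromosome 9, each without overlap of the libraries. Of the 29 autosomes, 27.6% were higher in every 8-cell TBE library and 20.7% lower, so that shifts of this kind were common. The 8-cell TBE lists had 90890, 247513 and 50090 peaks, below and above the 125253 to 156569 of the controls.

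At the 2-cell stage chromosome 9 was lower in all 3 TBE libraries, at 0.801, 0.909 and 0.783, than in the controls at 1.08, 1.14 and 1.13 (log2 difference −0.43, exact permutation p = 0.1, the smallest possible). These values rest on only 21, 268 and 313 peaks of chromosome 9 in TBE and 29, 42 and 251 in controls. Over the 3 stages its difference was −0.17 (exact permutation within stages, p = 0.0253, not adjusted, a test added after the data had been seen). The call was lost without replicate 2 (−0.17, exact p = 0.157), without replicate 3 (−0.15, exact p = 0.130) and with equal numbers of the strongest peaks (−0.19, exact p = 0.0978). Leaving out a replicate also leaves fewer arrangements.

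Low bins were less dense in every 8-cell TBE library than in any control. They stood at 0.385, 0.526 and 0.514 in the 8-cell TBE libraries, below every control library, with a mean of 0.475 ± 0.0781 (SD, n = 3) against 0.702 ± 0.0178. The difference was −0.227 in ratio (exact permutation p = 0.1, the smallest possible) and −0.156 with equal numbers of the strongest peaks. When peaks under 3-fold enrichment were dropped, it was −0.145 and the libraries overlapped (exact p = 0.4). Over the 3 stages it was −0.0774 (exact permutation within stages, p = 0.17), but −0.139 without replicate 1 (exact p = 0.00926) and −0.0228 without replicate 2 (exact p = 0.796). Low bins of the other autosomes also stood lower, at 0.443 ± 0.0852 against 0.691 ± 0.0364. Of the 290 bins, 97 were lower in every 8-cell TBE than in every control library (33.4%, against 32.5% of all bins) and 65 were higher (22.4%, against 20.1%). The 290 bins together were near the background, while 51 of the 81 low bins (63.0%) were lower, as were 61.7% of low bins elsewhere. The bins not called low were at 1.17 ± 0.0430 under the block and 1.07 ± 0.0101 in controls.

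Values of 8-cell TBE and control along the chromosomes are given without a test. In the last of 3 equal lengths of the inner part of chromosome 12, the 8-cell controls had 0.775 ± 0.0224 and the 8-cell TBE 1.17 ± 0.104 (SD, n = 3). For chromosome 9 these were 1.06 ± 0.0266 and 1.24 ± 0.0897, and for chromosome 6 they were 0.985 ± 0.0117 and 0.933 ± 0.0532. In the middle length of chromosome 6, which holds the low run at chr6:47000001-56000000 and part of the other, the value was 1.01 ± 0.0113 in controls and 0.779 ± 0.0562 under the block. The middle length of chromosome 9 had 1.04 ± 0.0063 and 0.886 ± 0.0464, and the first length of chromosome 6 had 1.00 ± 0.0302 and 0.909 ± 0.0106. In the first length of chromosome 9 the values were close, at 0.851 ± 0.0194 and 0.835 ± 0.0512.

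Control regions that TBE lacked were counted next. Regions were taken where peaks of 2 control libraries of a stage overlapped, and searched in the remaining control library and in each TBE library. At 8-cell the held-out controls lacked 17.4%, 18.6% and 6.48% of the regions on the 3 chromosomes, and the TBE libraries lacked 73.2%, 57.4% and 80.4%. The corresponding values on the other autosomes were 16.7%, 18.4% and 5.68% in controls and 68.1%, 54.0% and 76.0% in TBE. Therefore the 3 chromosomes exceeded the others by 0.746, 0.129 and 0.807 percentage points in held-out controls and by 5.10, 3.41 and 4.37 points in TBE, without overlap. Held-out controls lacked far fewer regions than TBE in both sets of chromosomes, so the points do not share a baseline. As ratios of the same percentages, held-out controls and TBE overlapped. The excess in TBE over that in controls was 3.73 points at 8-cell (exact permutation p = 0.1, the smallest possible), −0.683 at 4-cell and 4.86 at 2-cell, where only 12 to 30 regions were available. Each TBE value was a mean over the 3 sets of regions, whereas each control value came from a single set. The sets were not rebuilt when labels were permuted, so all p-values for missing regions are approximate.

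Over the 3 stages together the excess was 2.64 points (exact permutation within stages, p = 0.156). For regions gained since the stage before it was 7.14 points (exact permutation p = 0.0165), made up of 19.4 at 2-cell, −0.268 at 4-cell and 2.24 at 8-cell, so at 8-cell it was smaller than for all regions. The 2-cell part rests on few regions. Of the 41 regions held by at least 2 of the 2-cell libraries on the 3 chromosomes, 90.2% overlapped a GV oocyte region and were not gained. With equal numbers of the strongest peaks the excess over the 3 stages was 5.93 points (exact p = 0.0303). Counting peaks with a −log10 q of at least 3, it was −0.0268 points (exact p = 1.00), so this result depends on the peaks taken. It was 0.523 points without replicate 2 (exact p = 0.713) and 2.12 points without replicate 3 (exact p = 0.0463). With a replicate left out, the regions were all peaks of a single control library. These values thus rest on another kind of region and do not compare directly with 2.64 points. Of the 8834 regions on the 3 chromosomes with a peak in all 3 8-cell controls, 52.6% had none in any 8-cell TBE library, against 48.8% on the other autosomes. The share was 55.2% on chromosome 6, 51.7% on chromosome 9 and 50.0% on chromosome 12.

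**Figure D5:**
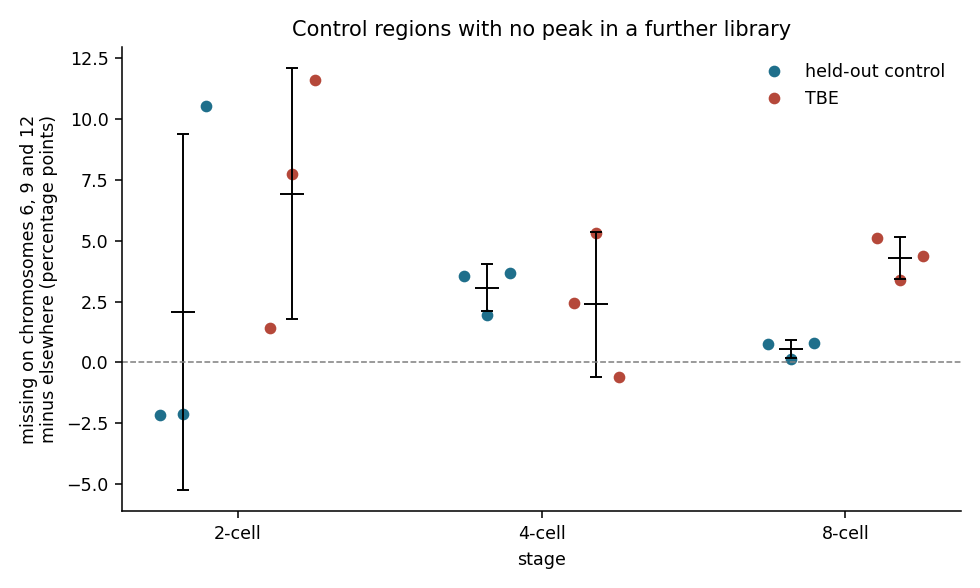
Percentage of control regions with no peak on chromosomes 6, 9 and 12 minus that on the other 26 autosomes (vertical axis, percentage points) in each held-out control and each TBE library of the 2-, 4- and 8-cell stages (horizontal axis), with black bars for the mean ± SD of 3. At 8-cell the TBE libraries lie at 3.41 to 5.10 points and the controls at 0.129 to 0.807. The controls lack far fewer regions than TBE there, so the points do not share a baseline.

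Peaks on the 3 chromosomes were slightly narrower than those of all autosomes and about as strong. The ratio of median widths was below 1 in 27 of the 30 libraries, with a median of 0.963. In 8-cell embryos the median width on the 3 chromosomes was 394, 338 and 345.5 bp, against 417, 351 and 351 bp on all autosomes, and in 8-cell TBE it was 484, 610 and 299 bp, against 524, 632 and 314 bp. The value of 1.18 in 2-cell replicate 1 rests on 71 peaks. In 2-cell replicate 2 both medians were 200 bp, and in 2-cell TBE replicate 1 they were 200.5 and 202 bp. These lie at or near the 200 bp extension the authors used in peak calling, which leaves the ratio little room. Conditions differed in relative width (50.2% of the sum of squares between them, permutation p = 0.00819, adjusted p = 0.0464), but not without replicate 1 (p = 0.173) or without replicate 2 (p = 0.0773). TBE and control did not differ in it beyond their spread (log2 difference −0.04, exact permutation within stages, p = 0.261).

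Column 7 of the lists holds the fold enrichment of a peak, that is, its read pileup divided by the background estimated around it. The median on the 3 chromosomes was between 0.970 and 1.03 times that of all autosomes in each of the 30 libraries. The median itself was 3.95 ± 0.141 in GV oocytes, 3.82 ± 0.0756 at 4-cell, 3.92 ± 0.103 at 8-cell and 3.24 ± 0.589 in 8-cell TBE (SD, n = 3). No difference in the ratio passed the test among the 10 conditions (46.0% between conditions, permutation p = 0.112) or between TBE and control (log2 difference −0.01, exact permutation p = 0.334). With the 616 strongest peaks per list the conditions differed (79.9%, permutation p = 7e-05).

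Single regions show the patterns. Each was taken as the first of its kind by a fixed rule, and their coordinates are on ARS-UCD1.2, for which no gene annotation was used here. The regions present in all 8-cell controls and no 8-cell TBE library with the highest mean fold enrichment were chr6:95402720-95403108, chr9:72136190-72136661 and chr12:44407858-44408265. The first had fold enrichments of 8.89, 12.4 and 11.8 in the 8-cell and 9.63, 11.3 and 9.50 in the morula libraries, and beyond these a peak in only 1 ESC library. The second had 11.1, 8.67 and 10.5 in 8-cell and 9.79, 11.02 and 7.68 in morula and no peak in any other library. The third, which lies inside the 10 Mb low run of chromosome 12, had 9.07, 10.0 and 13.8 in 8-cell, 7.46, 10.6 and 8.79 in morula and a weaker 5.04, 5.46 and 7.09 in ICM. None of the 3 had a peak in GV oocytes, 2-cell or 4-cell embryos, or any TBE library. Their 8-cell and 8-cell TBE values chose them, and those of the other conditions did not.

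At the other extreme, a few regions had a peak in all lists. Their number is bounded by the shortest list, 2-cell TBE replicate 1, with 17, 21 and 14 peaks on chromosomes 6, 9 and 12. Of 22589 merged regions on chromosome 6, 3 had a peak in all 30 lists, as did 3 of 20570 on chromosome 9, and the most on chromosome 12 was 28 lists, in 4 of 16888 regions. The strongest of them on chromosome 6, chr6:109018585-109018962, had a mean fold enrichment of 17.2 ± 0.183 in GV oocytes, 15.2 ± 1.24 at 2-cell, 16.8 ± 0.364 at 8-cell and 15.3 ± 2.75 in 8-cell TBE (SD, n = 3). Its counterpart on chromosome 9, chr9:20771810-20772101, had 13.9 ± 4.61 at 8-cell and 12.5 ± 4.35 in 8-cell TBE, and its 3 GV oocyte libraries had 18.6, 15.1 and 17.3. On chromosome 12 chr12:73094685-73096540 was weaker, with 6.01 ± 1.54 in GV oocytes and 5.89 ± 0.482 at 8-cell, and lacked a peak in 1 2-cell and 1 2-cell TBE library. By contrast, 8881 regions of chromosome 6, 8018 of chromosome 9 and 6685 of chromosome 12 had a peak in 1 list only.

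The widest 8-cell regions were chr6:60648628-60653266 (4639 bp), chr9:41619552-41623871 (4320 bp) and chr12:82705451-82709463 (4013 bp). Broad regions need not be strong: their mean fold enrichments at 8-cell were 3.02 ± 0.260, 4.80 ± 0.309 and 3.25 ± 0.279 (SD, n = 3). The widest on chromosomes 6 and 9 had a peak in every GV oocyte, morula, ICM, ESC and 8-cell TBE library, and none in 2-cell controls.

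The densest and the emptiest bins give the range. The 1 Mb bin with the most peaks over the 30 lists was chr12:82000001-83000000 on chromosome 12, with 39, 49 and 55 peaks for GV oocytes, 73, 59 and 71 for 8-cell and 118, 203 and 48 in 8-cell TBE. Relative to the autosomal mean this was 3.08 ± 0.369, 1.28 ± 0.196 and 2.77 ± 0.717 (SD, n = 3), so that the bin stood out in oocytes and blocked embryos more than in 8-cell controls. On chromosome 6 it was chr6:91000001-92000000, with 1.68 ± 0.197, 1.37 ± 0.00625 and 1.38 ± 0.131, and on chromosome 9 chr9:88000001-89000000, with 1.45 ± 0.541, 1.67 ± 0.122 and 1.58 ± 0.281.

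The bins with the fewest peaks were chr6:74000001-75000000, chr9:37000001-38000000 and chr12:41000001-42000000. The first, inside the long low run of chromosome 6, had 0, 0 and 1 peaks for GV oocytes, 2, 0 and 1 for 4-cell, 37, 34 and 52 in 8-cell, 20, 24 and 17 in morula and 6, 12 and 8 in ICM. Its density relative to the autosomal mean was 0.761 ± 0.0862 at 8-cell and 0.254 ± 0.0660 in 8-cell TBE (SD, n = 3). The second stayed sparse at 8-cell, at 0.294 ± 0.0162, and the third was at 0.532 ± 0.0556.

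Stretches with no peak in any library of a condition were measured last. The longest such stretch of chromosome 12 was 3258 kb in GV oocytes, 714 kb at 4-cell and 279 kb at 8-cell. For chromosome 6 it was 1986 kb, 988 kb and 190 kb, and for chromosome 9 it was 2256 kb, 844 kb and 252 kb. Over all 30 lists together the longest peak-free stretches were chr12:69850689-69970087 (119 kb), chr6:3827730-3908610 (80.9 kb) and chr9:46764206-46826537 (62.3 kb). The 8-cell lists had the most peaks of the 3 conditions, whereas the GV oocyte lists were on average longer than the 4-cell lists (42469 ± 2276 and 26450 ± 14151 peaks, SD, n = 3).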

How the data were processed

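Peaks had been called by the authors after trimming, alignment to the ARS-UCD1.2 assembly (BWA 0.7.17), removal of duplicates (PicardTools) and of mitochondrial and poor alignments (SAMtools 1.7), with MACS2 2.1.1 for broad peaks at a q value of 0.05 (versions per the submitters' processing notes). The deposited fold enrichment is the ratio of pileup to local background, averaged over a peak. The deposited −log10 p and −log10 q values are averaged likewise, and the deposited score, which follows −log10 q, was not used. The study's methods describe peaks from merged, subsampled reads, whereas each list used here belongs to 1 library, and the read depth of single lists was not used here.

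Peaks had to lie wholly inside the inner part of a chromosome. Relative measures were taken per library and tested on the log2 scale, other than ratios of 1 Mb bins and percentage points. Tests were two-sided permutation tests over libraries: 100000 relabellings over 10 conditions, all arrangements for the trend and for 3 against 3 libraries, and 8000 within stages for TBE. On simulated data the functions gave 0 mismatches over 465 trials. The software was scipy 1.17.1, numpy 2.4.6, pandas 2.3.3 and matplotlib 3.10.9 under Python 3.11.15. Alternatives were a −log10 q or a fold enrichment of at least 3, equal numbers of the strongest peaks by −log10 p, peaks within 500 bp merged, the other 26 autosomes as reference, 0 or 5 Mb left out at the ends, means or medians, an overlap of at least 50%, gained regions only, a replicate block and leaving out each replicate. No list had peaks within 500 bp of each other (the smallest gap was 801 bp), so merging changed nothing. Low bins, tests of single chromosomes and the lowest 10% of bins were added after the data had been seen. Regions were named, per chromosome, as the strongest in all 8-cell control and no 8-cell TBE libraries, the widest at 8-cell, and the one in the most lists, together with the densest and emptiest 1 Mb bins and the longest peak-free stretch. A planned list of genes was left out, since no gene positions on ARS-UCD1.2 were used here. No pair of lists was identical. The chromosomes, measures and lists were chosen with earlier results of these data known.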

Additional observations from a re-analysis of the deposited data

Results flagged for a closer look

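The effect of blocking transcription differed between the 8-cell and the 2-cell stage in 3 of 27 differences between stages examined by an exact permutation test with labels permuted within each stage (400 arrangements), before adjustment. For relative density, TBE minus control was 0.01 on the log2 scale at 8-cell and −0.21 at 2-cell, a difference of 0.22 (exact p = 0.02, Benjamini-Hochberg adjusted p = 0.27). For the relative covered share it was 0.01 and −0.26, a difference of 0.27 (exact p = 0.005, the smallest possible, adjusted p = 0.135). For chromosome 9 alone it was 0.01 and −0.43, a difference of 0.44 (exact p = 0.04, adjusted p = 0.289). None of the 3 passed the adjustment. All 3 libraries of 2-cell TBE were below all 3 of 2-cell in density. They overlapped with no ends left out (−0.14, exact p = 0.6), with 5 Mb left out (−0.17, exact p = 0.6) and with a −log10 q of at least 3 (−0.34, exact p = 0.3). 2-cell replicates 1 and 2 had 71 and 95 peaks on the 3 chromosomes and 2-cell TBE replicate 1 had 52. Without replicate 1 of both conditions TBE minus control at 2-cell was −0.10 in density, −0.15 in covered share and −0.43 for chromosome 9 (exact permutation p = 0.333 each, the smallest that 2 against 2 libraries allow).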

How the results depend on the processing

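Repeats of the main comparisons under other settings numbered 162, not counting the merging of peaks, which found none to merge. Of these, 139 kept their side of the 0.05 threshold and, where they had one, their direction. Shares between conditions have no direction, and neither has a trend of 50.0%, so such repeats could not reverse. Of 237 repeats for single stages and single chromosomes, merging included, 34 reversed direction. Read depth was not used, 2-cell results rest on few peaks, and 3 against 3 libraries cannot give a p below 0.1. The causes of the changes listed here were not tested. Low bins and tests of single chromosomes were chosen after seeing the data. All p-values are from permutation tests.

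With −log10 q of at least 3, TBE minus control became −0.21 for density (permutation p = 0.0198). At 8-cell it was −0.0435 for density, −0.0382 for covered share and −0.00401 for fold enrichment, which was 0.0153 at 2-cell. For missing regions it was −0.0268 points (−7.04 at 2-cell, 2.78 at 4-cell). The share between conditions became 46.5% for width (permutation p = 0.0724) and 55.2% for fold enrichment (permutation p = 0.0328), whose trend was 87.0% (exact p = 0.00342). With a fold enrichment of at least 3, the share for fold enrichment was 56.3% (permutation p = 0.0240) and its TBE difference at 8-cell −0.0126.

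With equal numbers of the strongest peaks, the trends were 20.4% for covered share (exact p = 0.0246) and 47.2% for low bins, and the shares between conditions 51.7% for width (permutation p = 0.0502) and 79.9% for fold enrichment (permutation p = 7e-05). TBE differences were −0.0631 for width at 4-cell, 0.00862 (2-cell) and −0.0250 (8-cell) for fold enrichment, and −0.0769 (2-cell) and 0.0638 (4-cell) for low bins, 0.0215 for chromosome 6 at 4-cell and −0.0835 for chromosome 12. From 4-cell to 8-cell chromosome 9 had −0.0390. For missing regions the difference was 5.93 points (exact p = 0.0303), with 4.26 at 4-cell.

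With no ends left out, the trend of covered share was 51.9%, and TBE differences were −0.00772 (density, 8-cell), −0.00112 (covered share, 8-cell) and −0.00803 (width, 4-cell). With 5 Mb left out that trend was 55.6%. Means over peaks gave a width trend of 5.56% (exact p = 0.000189) and TBE differences of −0.0263 (width, 4-cell) and −0.00232 (fold enrichment, 8-cell). Medians of libraries gave −0.0922 for covered share (exact p = 0.046), gained regions alone 7.14 points (exact p = 0.0165), and the lowest 10% of bins −0.139 (exact p = 0.0208), with −0.0818 at 2-cell. The 2-cell part of the value for gained regions rests on few regions.

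Leaving out each replicate in turn, the shares between conditions ran from 72.6% to 87.3% for density, 70.8% to 86.5% for covered share and 60.3% to 64.3% for width. With fewer libraries per condition such a share is larger under random labels, so these do not compare with the shares of all replicates. TBE differences ran from −0.14 to 0.0263 (density, 4-cell), −0.18 to 0.0243 (covered share, 4-cell), −0.0139 to 0.0230 (fold enrichment, 8-cell), 0.523 to 2.41 points (missing regions, then taken from a single control library) and −0.139 to −0.0228 (low bins, with −0.118 to 0.0817 at 2-cell and −0.108 to 0.0847 at 4-cell). For chromosome 6 they ran from −0.23 to 0.11 at 2-cell and −0.0517 to 0.0616 at 4-cell, for chromosome 9 from −0.00996 to 0.0213 at 8-cell, and for chromosome 12 from −0.0194 to 0.0608 over all stages, −0.26 to 0.0471 at 2-cell and −0.25 to 0.0620 at 4-cell.

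The sources used here do not say that a number marks a collection. Of 9 same-numbered TBE and control pairs, 7 correlated positively and 4 over 0.1 (−0.0252 to 0.355, mean 0.103, against −0.0508 for the 18 pairs of different number). Of the 9 TBE libraries 5, and of the 9 controls 6, correlated best with their own number. With the number as a replicate block (exact sign-flip test), TBE minus control had p = 0.176 for density (−0.09), p = 0.125 for covered share (−0.11), p = 0.227 for width (−0.04), p = 0.223 for fold enrichment (−0.01), p = 0.0781 for missing regions (2.64 points) and p = 0.242 for low bins (−0.0774), so the block changed no call.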
